A study of Mus musculus with 12 samples.

Results

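Sebum, the lipid secretion of the skin, is made in sebaceous glands, and 9 genes that mark this lipid production were followed here across all 12 samples. They were picked by mouse symbol from the 55401 genes of the table and read out one replicate at a time. The samples were RNA-seq libraries of dermis, the connective tissue layer of skin, from C57BL/6 mice aged 6 weeks in a wounding experiment. Wild-type (WT) and Cthrc1-/- mice were each sampled on day 0 and on day 7, which gave 4 groups of 3 biological replicates. Cthrc1 encodes a secreted protein of wound and vessel tissue. The labels describe neither how the Cthrc1 allele was made, nor whether day 0 tissue was intact skin, nor whether a sample pooled animals, so p-values measure the spread between these samples.

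Sebaceous glands are attached to hair follicles, and their cells, the sebocytes, fill with lipid droplets and then burst to release them. Mouse sebum is rich in wax esters, in which a fatty acid is joined to a fatty alcohol, together with cholesteryl esters and triglycerides. The genes cover this route in order. Scd1 and Scd3 encode stearoyl-CoA desaturases, which place a double bond in a saturated fatty acid. Elovl3 encodes an elongase of long-chain fatty acids, and Far2 a reductase that turns fatty acyl-CoA into fatty alcohol. Awat1 and Awat2 encode acyltransferases that make wax esters, and Soat1 encodes the sterol acyltransferase that makes cholesteryl esters. Cidea encodes a lipid droplet protein, and Mc5r the melanocortin receptor of sebaceous and other exocrine glands. Several of them, Scd1, Soat1 and Cidea among them, are also used by other cells such as adipocytes and macrophages.

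RefSeq promoter entries (GRCm38.p6) were matched for 5 of the 9 members, namely Scd3, Awat1, Awat2, Soat1 and Far2. The bases just before the start of 3 of them are shown because they span the range of the responses: Scd3 with the most negative day estimate, Awat1 with a call in WT, and Soat1 with the WT estimate nearest to 0. Each is written 5′ to 3′ on the gene's strand, with CCAAT in capitals where it occurs.
Scd3 (chr19:44203038-44203268, plus strand): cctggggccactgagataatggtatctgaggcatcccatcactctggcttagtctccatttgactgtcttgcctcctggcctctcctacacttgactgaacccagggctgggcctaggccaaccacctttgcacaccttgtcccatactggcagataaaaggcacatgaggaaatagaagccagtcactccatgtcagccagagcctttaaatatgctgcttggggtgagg
Awat1 (chrX:100571997-100572246, plus strand): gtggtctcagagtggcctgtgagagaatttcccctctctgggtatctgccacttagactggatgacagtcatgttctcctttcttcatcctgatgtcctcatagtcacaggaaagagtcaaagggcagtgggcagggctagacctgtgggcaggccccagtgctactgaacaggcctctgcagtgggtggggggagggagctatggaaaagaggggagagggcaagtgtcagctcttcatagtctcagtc
Soat1 (chr1:156474332-156474578, minus strand): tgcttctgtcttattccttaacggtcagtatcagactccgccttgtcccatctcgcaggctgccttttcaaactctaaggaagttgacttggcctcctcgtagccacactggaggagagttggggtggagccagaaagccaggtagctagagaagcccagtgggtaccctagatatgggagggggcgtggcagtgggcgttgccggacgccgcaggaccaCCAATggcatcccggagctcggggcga
Both strands of the 250 bases before each RefSeq start were searched. CCAAT was in 3 of 6 member windows (Soat1 and both of Awat2), against 33.8% of all 32851 promoter windows, and GGGCGG in 2 of 6 (Far2 and 1 of Awat2), against 32.7%. AGGTCA (14.0% of all windows), the direct repeat of it with 1 base between (0.0335%), TCACNCCAC (1.05%), CACGTG (6.02%) and TATAAA (12.4%) were in none of the 6. A match is a description of the letters only, and an absent motif says nothing beyond this window. Neither Scd3 nor Awat1 held any of the 7 motifs.

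Libraries held between 48329668 and 76938132 counts, and the members' counts per sample ran from 209 (Awat2) to 140461 (Scd1). Cthrc1 itself stood between 21.1 and 27.0 FPKM on day 0 and between 74.0 and 106 FPKM on day 7 in WT samples, against at most 0.151 FPKM in every Cthrc1-/- sample. FPKM is the fragment count per kilobase of transcript after scaling for the depth of the library, and it allows levels to be compared between genes. The tissue label was only part of what the libraries held. Summed FPKM of 8 dermal fibroblast markers lay between 4860 and 6486 in WT day 0 samples but at 2427, 1325 and 354 in Cthrc1-/- day 0 replicates 1, 2 and 3. Epidermal keratinocyte markers (8 genes) summed to between 2247 and 9415 FPKM over the 12 samples, so keratinocyte RNA was present in each. Hair inner root sheath markers summed to between 2.77 and 5.54 FPKM in WT day 0 samples and to between 231 and 11666 FPKM in the other 9. Among these libraries, 2 stood apart. Cthrc1-/- day 0 replicate 3 had the lowest fibroblast sum and the highest inner root sheath sum, and WT day 7 replicate 1 had the lowest mean correlation with its group mates (0.893) and the lowest epidermal sum (2247 FPKM). Cthrc1-/- day 0 replicate 1 correlated with its mates about as poorly (0.915) as replicate 3 (0.913). Results are therefore given with and without these libraries, an omission chosen after the values were seen.

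Scd1, Awat1 and Cidea fell between day 0 and day 7 in WT mice, and the other 6 members did not pass the test. All 9 had a negative estimate between the days in both genotypes. In Cthrc1-/- mice no member passed, and none differed by the test between the genotypes on either day. The summed FPKM of the 9 on day 0 was 495, 526 and 396 in the WT samples, in replicate order, and 656, 499 and 206 in the Cthrc1-/- samples. On day 7 it was 87.2, 186 and 255 in WT and 262, 298 and 304 in Cthrc1-/- samples. The WT groups were thus separate, while the Cthrc1-/- day 0 samples spanned values both above and below those of day 7. In bulk tissue, fewer sebocytes, less RNA per sebocyte and a larger share of RNA from other cells cannot be told apart.

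**Figure D1:**
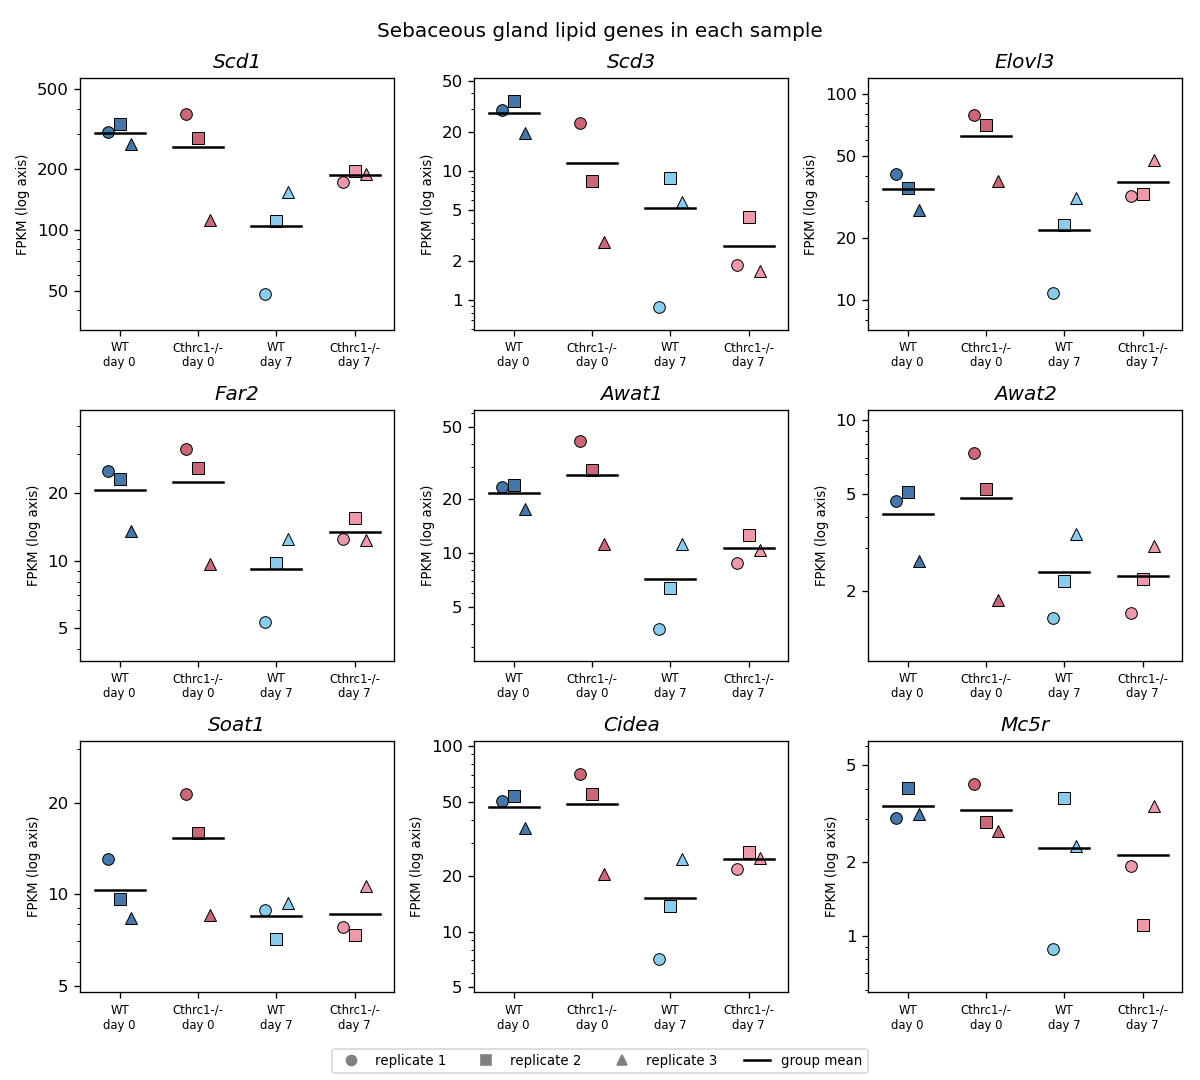
FPKM (log axis) of the 9 members in each sample, by group. Symbols mark replicates 1 to 3 and horizontal lines the group means. WT day 7 replicate 1 (light blue circle) is the lowest of all 12 samples in 8 panels, and Cthrc1-/- day 0 replicate 1 (dark red circle) is the highest in 8.

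The desaturase Scd1 was the most abundant member in every sample and made up between 54.1% and 67.6% of the summed FPKM. Its level on day 0 was 306, 336 and 268 FPKM in WT and 376, 286 and 112 FPKM in Cthrc1-/- samples. On day 7 it was 48.1, 111 and 155 FPKM in WT and 174, 195 and 190.2 FPKM in Cthrc1-/- samples. All 3 WT day 7 samples lay below all WT day 0 samples, and all 3 Cthrc1-/- day 7 samples lay above the WT day 7 samples. Between the days Scd1 fell in WT by 1.76 on the log2 scale (SE 0.45, edgeR adjusted p = 0.0328), a 2.90-fold lower mean FPKM. In Cthrc1-/- mice the day estimate was -0.65 (SE 0.44, edgeR adjusted p = 0.474), with replicate 3 of day 0 below every day 7 sample. On day 7 the genotype estimate was 0.80 (SE 0.44, edgeR adjusted p = 0.956), so the separation of the FPKM ranges did not pass the test.

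Scd3, a desaturase gene of the same chromosome 19 cluster, spanned the widest range of the members. On day 0 its FPKM was 29.7, 34.7 and 19.7 in WT and 23.5, 8.32 and 2.81 in Cthrc1-/- samples. By day 7 the values were 0.892, 8.82 and 5.75 in WT and 1.88, 4.39 and 1.68 in Cthrc1-/- samples. The WT ranges of the days did not overlap, and in Cthrc1-/- mice day 0 replicate 3 lay inside the day 7 range. Its estimates between days were the most negative of the 9, at -2.68 in WT (SE 0.88, edgeR adjusted p = 0.0689) and -2.32 in Cthrc1-/- mice (SE 0.87, edgeR adjusted p = 0.195), yet with the largest standard errors neither passed. The genotype estimate on day 0 was -1.34 (SE 0.84, edgeR adjusted p = 0.316).

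Elovl3, the elongase, departed from the desaturases in its order of groups. Day 0 samples had 40.7, 35.1 and 27.2 FPKM in WT and 79.4, 71.0 and 37.6 FPKM in Cthrc1-/- mice. Day 7 samples had 10.7, 23.2 and 31.2 FPKM in WT and 31.9, 32.6 and 47.6 FPKM in Cthrc1-/- mice. Its ranges overlapped between the days in each genotype and, by 1 sample, between the genotypes on day 0, and were separate between the genotypes on day 7. The genotype estimates were 0.78 on day 0 (SE 0.37, edgeR adjusted p = 0.193) and 0.74 on day 7 (SE 0.37, edgeR adjusted p = 0.931). Without the 2 libraries that stood apart, the day 0 difference was 1.11 and passed (edgeR adjusted p = 0.0338). The Elovl3 call was the only one of a member between genotypes under any alternative run. That omission was chosen after the values were seen, and it called 976 of all 14313 genes, against 827 in the reported fit. Leaving out only Cthrc1-/- day 0 replicate 3 gave no call of Elovl3 (edgeR adjusted p = 0.121). The other omitted library, WT day 7 replicate 1, is not part of the day 0 comparison but shares the fit. Between days the Elovl3 estimates were -0.88 in WT (edgeR adjusted p = 0.131) and -0.92 in Cthrc1-/- mice (edgeR adjusted p = 0.223).

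Far2, the fatty acyl-CoA reductase, was at 25.2, 23.2 and 13.5 FPKM in WT and 31.7, 26.0 and 9.68 FPKM in Cthrc1-/- samples of day 0. It was at 5.32, 9.70 and 12.6 FPKM in WT and 12.4, 15.5 and 12.3 FPKM in Cthrc1-/- samples of day 7. The WT ranges of the days were separate by a narrow margin, between 13.5 and 12.6 FPKM, and the day estimate of -1.38 (SE 0.44) had an edgeR adjusted p of 0.0619. In Cthrc1-/- mice the estimate was -0.93 (SE 0.43, edgeR adjusted p = 0.290), with day 0 replicate 3 below all day 7 samples. Far2 shared 12.7% of its 100-base transcript windows with Ergic2, which overlaps it on the opposite strand, and strand use in the counting was not stated, so its level is uncertain.

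The wax ester synthases followed, with Awat1 the more abundant of the pair. Awat1 was at 23.2, 23.8 and 17.4 FPKM in WT and 41.5, 28.6 and 11.2 FPKM in Cthrc1-/- samples on day 0. On day 7 Awat1 was at 3.77, 6.40 and 11.2 FPKM in WT and 8.77, 12.6 and 10.3 FPKM in Cthrc1-/- samples. The WT days did not overlap, and in Cthrc1-/- mice day 0 replicate 3 again fell within the day 7 range. Awat1 fell between the days in WT by 1.82 on the log2 scale (SE 0.48, edgeR adjusted p = 0.0341), a 3.02-fold lower mean FPKM, and its Cthrc1-/- estimate was -1.54 (SE 0.47, edgeR adjusted p = 0.119). Awat2 had 4.67, 5.09 and 2.65 FPKM in WT and 7.36, 5.21 and 1.84 FPKM in Cthrc1-/- samples of day 0, and 1.55, 2.19 and 3.42 against 1.62, 2.23 and 3.06 FPKM on day 7. Its ranges overlapped in every comparison, and the day estimates were -1.01 in WT (edgeR adjusted p = 0.191) and -1.25 in Cthrc1-/- mice (edgeR adjusted p = 0.222).

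Soat1, which esterifies cholesterol, had the smallest estimate between days of the 9 in WT. It stood at 13.1, 9.62 and 8.35 FPKM in WT and at 21.4, 16.0 and 8.55 FPKM in Cthrc1-/- samples of day 0. Day 7 values were 8.91, 7.15 and 9.35 FPKM in WT and 7.78, 7.36 and 10.7 FPKM in Cthrc1-/- samples. Every pair of ranges overlapped. The day estimate was -0.47 in WT (SE 0.33, edgeR adjusted p = 0.351) and -1.01 in Cthrc1-/- mice (SE 0.33, edgeR adjusted p = 0.145). Macrophages also use Soat1, and 8 macrophage markers summed to between 253 and 272 FPKM in WT day 0 samples but, in replicate order, to 1087, 599 and 296 FPKM in those of day 7. Replicate 1, where that sum was highest, was the sample in which the other 8 members were lowest of all 12 and Soat1 was not. Within WT day 7, however, Soat1 was highest (9.35 FPKM) in replicate 3, where the macrophage sum was lowest. The highest Soat1 level of all, 21.4 FPKM in Cthrc1-/- day 0 replicate 1, came with a macrophage sum of 188 FPKM. The part of these cells in the Soat1 level was not tested.

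Cidea, the lipid droplet protein, ranked the second or the third in level in every group. Its day 0 values were 50.2, 53.8 and 36.2 FPKM in WT and 71.0, 54.9 and 20.4 FPKM in Cthrc1-/- samples. Its day 7 values were 7.09, 13.8 and 24.7 FPKM in WT and 21.7, 26.9 and 25.0 FPKM in Cthrc1-/- samples. The WT days were separate, and the Cthrc1-/- days overlapped only through day 0 replicate 3. Cidea fell between the days in WT by 1.85 on the log2 scale (SE 0.48, edgeR adjusted p = 0.0342), a 3.07-fold lower mean FPKM, and its Cthrc1-/- estimate was -1.18 (SE 0.47, edgeR adjusted p = 0.225). Cidea is also a gene of brown fat, whose defining uncoupling protein Ucp1 did not exceed 0.186 FPKM in any of the 12 samples. The 7 brown adipocyte markers together summed to between 11.9 and 47.6 FPKM, highest in WT day 7 replicate 2, and their part in the Cidea level was not tested.

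Mc5r, the receptor, was the least abundant member by group mean. It measured 3.05, 4.01 and 3.16 FPKM in WT and 4.19, 2.91 and 2.69 FPKM in Cthrc1-/- samples on day 0, then 0.880, 3.66 and 2.33 FPKM in WT and 1.93, 1.10 and 3.41 FPKM in Cthrc1-/- samples on day 7. All ranges overlapped. The day estimates were -0.79 in WT (SE 0.48, edgeR adjusted p = 0.284) and -0.78 in Cthrc1-/- mice (SE 0.48, edgeR adjusted p = 0.431).

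**Figure D2:**
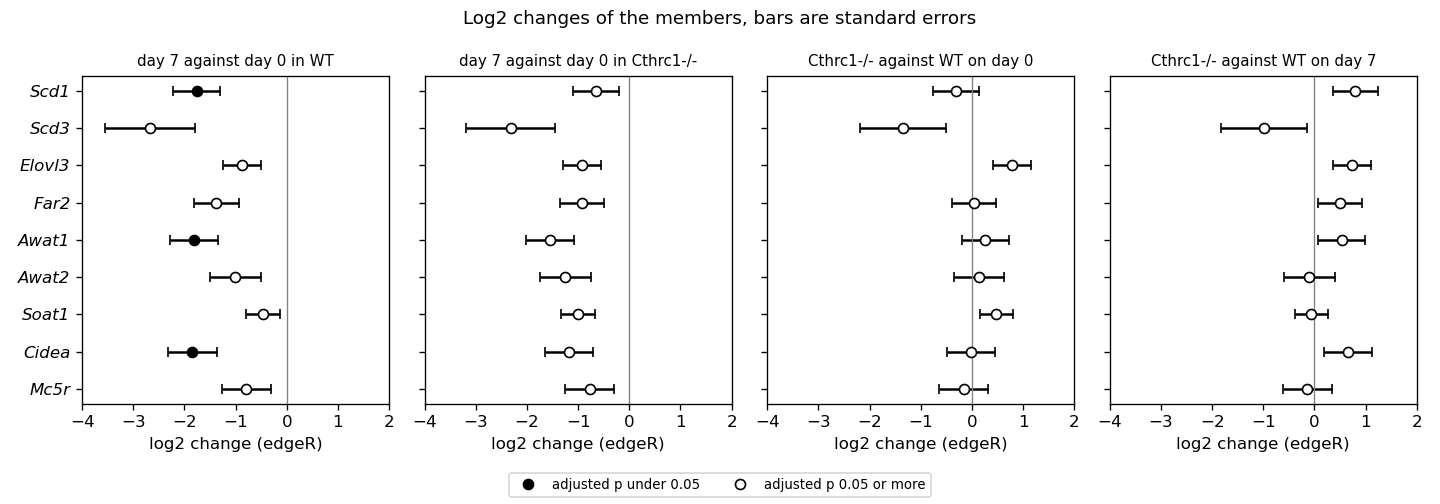
Log2 change (x axis) of each member in the 4 comparisons, with standard errors as bars. Filled points passed an edgeR adjusted p of 0.05, which only Scd1, Awat1 and Cidea between the days in WT did, and all 18 day estimates lie left of 0.

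In WT mice 3 of 9 members were called lower on day 7, against 7.1% of the 14313 genes tested that were called lower, and 0 of 9 were called higher, against 6.04%. The median member estimate was -1.38 and that of all genes -0.00. FPKM ranges of the days were separate, with day 7 below, for 5 of 9 members (Scd1, Scd3, Awat1, Far2 and Cidea), against 14.1% of all genes. DESeq2 called 5, the same 3 with Scd3 and Far2. It called 1698 of all 14313 genes lower, against 1016 in the reported fit. Without the filter on low values edgeR called Scd1 alone (adjusted p = 0.0491, against 0.0527 for Awat1 and 0.0523 for Cidea), and 646 of 34303 genes lower. With replicate number as a block, edgeR called 0 members (adjusted p from 0.0626 to 0.0690 for the 3). The member calls rested on few samples. Leaving out any of WT day 0 replicates 1, 2 or 3 or WT day 7 replicates 1 or 2 left 0 members called, and leaving out WT day 7 replicate 3 left all 3 calls. The edgeR adjusted p over those 6 omissions ranged from 0.0301 to 0.0929 for Scd1, from 0.0267 to 0.0957 for Awat1 and from 0.0238 to 0.0976 for Cidea, while the estimates stayed between -2.32 and -1.35. Without both libraries that stood apart, 5 members were called, adding Scd3 (-2.15, edgeR adjusted p = 0.0369) and Far2 (-1.10, edgeR adjusted p = 0.0233), and 1423 of all genes were called lower. Of these 2 libraries, WT day 7 replicate 1 alone belongs to this comparison, and leaving out only that sample left 0 calls. The other is a Cthrc1-/- library that shares the fit. The Scd1 estimate went from -1.76 to -1.41, so the added calls do not reflect larger changes.

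In Cthrc1-/- mice 0 of 9 members were called lower between the days, against 0.601% of all genes, and 0 of 9 higher, against 0.859%. Of the 9, 6 had an unadjusted edgeR p under 0.05, against 2596 of all 14313 genes in either direction. DESeq2 called 3 lower (Scd3, Awat1 and Soat1), and 660 of all genes lower. The median member estimate was -1.01, and no member's ranges were separate, against 4.99% of all genes whose day 7 range lay below. In this group day 0 replicate 3 held the lowest value of all 9 members and replicate 1 the highest of all 9. Leaving out replicate 3 gave 3 calls, Awat1 (-1.94, edgeR adjusted p = 0.0248), Awat2 (-1.66, edgeR adjusted p = 0.0487) and Soat1 (-1.32, edgeR adjusted p = 0.0248), and leaving out replicate 1 gave 0. Of all 14313 genes, 333 were called lower without replicate 3 and 53 without replicate 1, against 86 in the reported fit. Leaving out both libraries that stood apart gave 8 calls, all members but Mc5r, with estimates from -2.80 (Scd3) to -1.04 (Scd1). The same omission called 945 of all genes lower. The omitted day 0 library is the lowest of its group for every member, so its omission raises each day 0 mean. The other omitted library, WT day 7 replicate 1, is not part of this comparison but shares the fit. The Scd1 estimate was -1.04 without replicate 3 alone too, and was not called there (edgeR adjusted p = 0.121). The calls added by leaving out both therefore do not reflect larger changes.

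Between the genotypes on day 0, 0 of 9 members were called, against 5.78% of all genes in either direction. An unadjusted edgeR p under 0.05 was found for 0 members, against 4068 of all 14313 genes. DESeq2 also called 0, against 2787 of all genes. Member estimates ran from -1.34 (Scd3) to 0.78 (Elovl3), with a median of 0.05 against -0.05 over all genes. No member's ranges were separate, whereas 21.5% of all genes had every Cthrc1-/- day 0 sample above and 19.8% every one below. On day 7, 0 of 9 were called, against 0.021% of all genes. Again 0 members had an unadjusted edgeR p under 0.05, against 782 of all genes, and DESeq2 called 0, against 62. The member median was 0.50 against -0.01, and the ranges were separate, Cthrc1-/- above, for Scd1 and Elovl3, against 6.46% of all genes.

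Whether the change between days differed by genotype was tested as an interaction. It was called for 0 of 9 members, against 0.014% of all genes. An unadjusted edgeR p under 0.05 was found for 0 members, against 2164 of all 14313 genes, and DESeq2 called 0, against 681. The member estimates ran from -0.54 for Soat1 (SE 0.46, edgeR adjusted p = 0.585) to 1.11 for Scd1 (SE 0.63, edgeR adjusted p = 0.417), and the other 7 each changed sign under at least 1 alternative. A call in WT beside none in Cthrc1-/- mice therefore does not show that the genotypes differ. The 4 comparisons share their groups pairwise, so their estimates are not independent of each other.

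Set against the WT day 0 mean, samples of 1 group were spread widely. The median member stood at 154%, 126% and 46.9% of that mean in Cthrc1-/- day 0 replicates 1 to 3. It stood at 25.8%, 47.0% and 60.8% in WT day 7 and at 56.6%, 58.7% and 62.7% in Cthrc1-/- day 7 samples. Within the Cthrc1-/- day 7 group the coefficient of variation ran from 6.05% for Scd1, 10.9% for Cidea and 13.3% for Far2 to 54.4% for Mc5r and 57.0% for Scd3. In WT day 7 samples it was 51.3% for Scd1, 58.5% for Cidea, 39.6% for Far2, 60.7% for Mc5r and 77.6% for Scd3. In 8 of 9 members WT day 7 replicate 1 was the lowest of 12, and its epidermal marker sum of 2247 FPKM was also below those of replicates 2 (5991) and 3 (9415). In Cthrc1-/- day 0 replicate 3 the epidermal sum was 3957 FPKM, against 8357 and 7602 in replicates 1 and 2. In WT day 7 replicate 3 the epidermal sum was 119% of its WT day 0 mean, beside 60.8% for the median member. In the Cthrc1-/- day 7 samples the epidermal sum was at 98.9%, 95.9% and 88.8%, beside 56.6%, 58.7% and 62.7% for the median member. The part of epithelial content in the member levels was not tested.

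**Figure D3:**
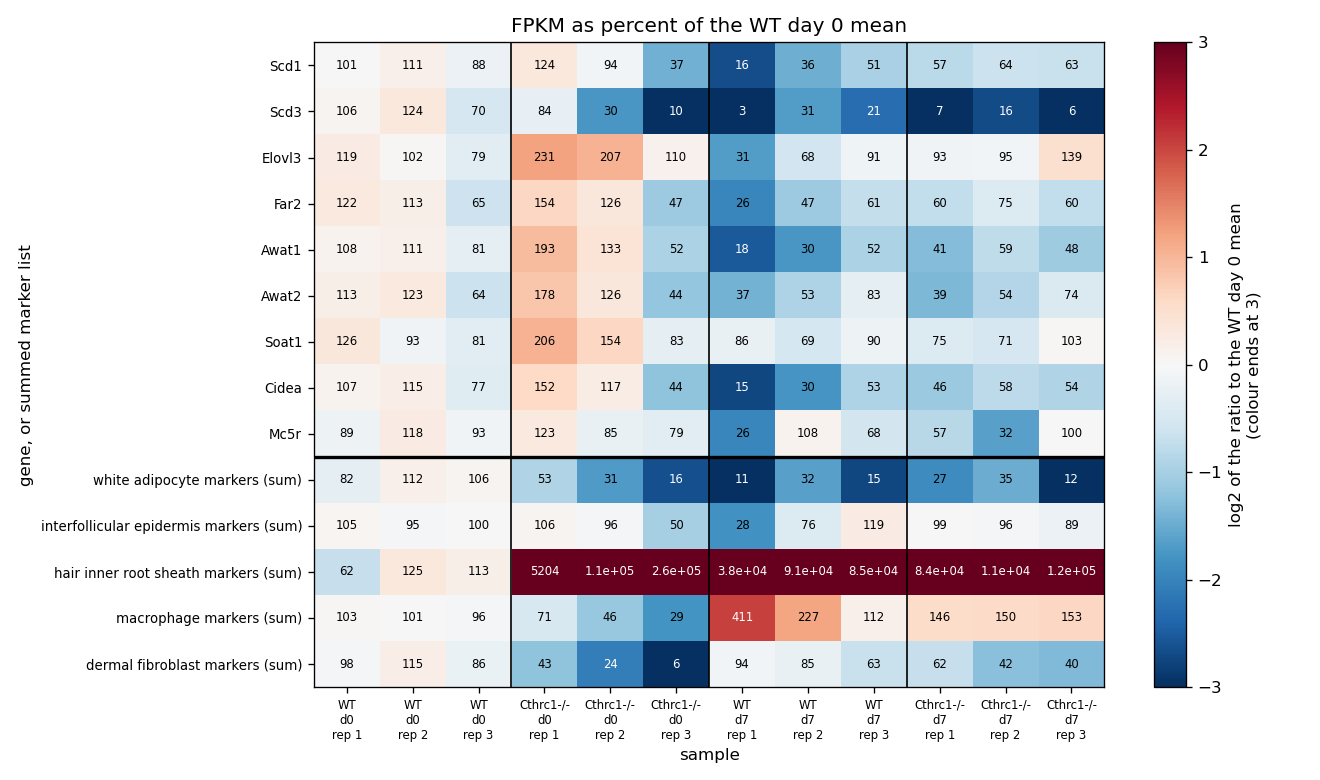
FPKM of each member, and summed FPKM of 5 marker lists, in every sample as a percent of the WT day 0 mean (colour: log2 of that ratio, ending at 3). WT day 7 replicate 1 and Cthrc1-/- day 0 replicate 3 are low for most members and for epidermal markers alike. WT day 7 replicate 3 is low for most members, with the epidermal sum at 119%. On day 7 Scd3 is at most 31.5% and the adipocyte sum at most 35.4% of its WT day 0 mean. A link between Scd3 and the adipocyte sum was not tested.

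The order of levels was similar among groups. Scd1 came first in each, with no overlap with the next member. In WT on day 0 it was followed by Cidea, Elovl3, Scd3, Awat1 and Far2, neighbours in that order with overlapping ranges, then Soat1, and last Awat2 and Mc5r, which overlapped. In the other groups Elovl3 came second, and Scd3 dropped from the fourth place to the seventh, its day 0 mean being 28.0 FPKM in WT and 11.5 FPKM in Cthrc1-/- samples and its day 7 mean 5.15 and 2.65 FPKM. In Cthrc1-/- day 7 samples the first 3, Scd1, Elovl3 and Cidea, did not overlap with their neighbours.

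Ratios between members do not depend on how a library is scaled. Cidea to Awat1 stayed between 1.71 and 2.47 in all 12 samples. Scd3 to Scd1 was 0.097, 0.103 and 0.074 in WT day 0 samples and 0.062, 0.029 and 0.025 in Cthrc1-/- day 0 samples, which did not overlap. By day 7 it was 0.019, 0.080 and 0.037 in WT and 0.011, 0.022 and 0.0088 in Cthrc1-/- samples, which overlapped. Elovl3 to Awat1 was 1.75, 1.47 and 1.56 in WT day 0 samples and higher in each of the other 9, from 1.91 to 4.60. Soat1 to Awat1 rose with no overlap in WT, from between 0.40 and 0.56 on day 0 to between 0.83 and 2.36 on day 7. With 3 samples against 3, an exact two-sided permutation test cannot go below p = 0.10, so these ratios are given as a description. They were picked after the values were seen.

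**Figure D4:**
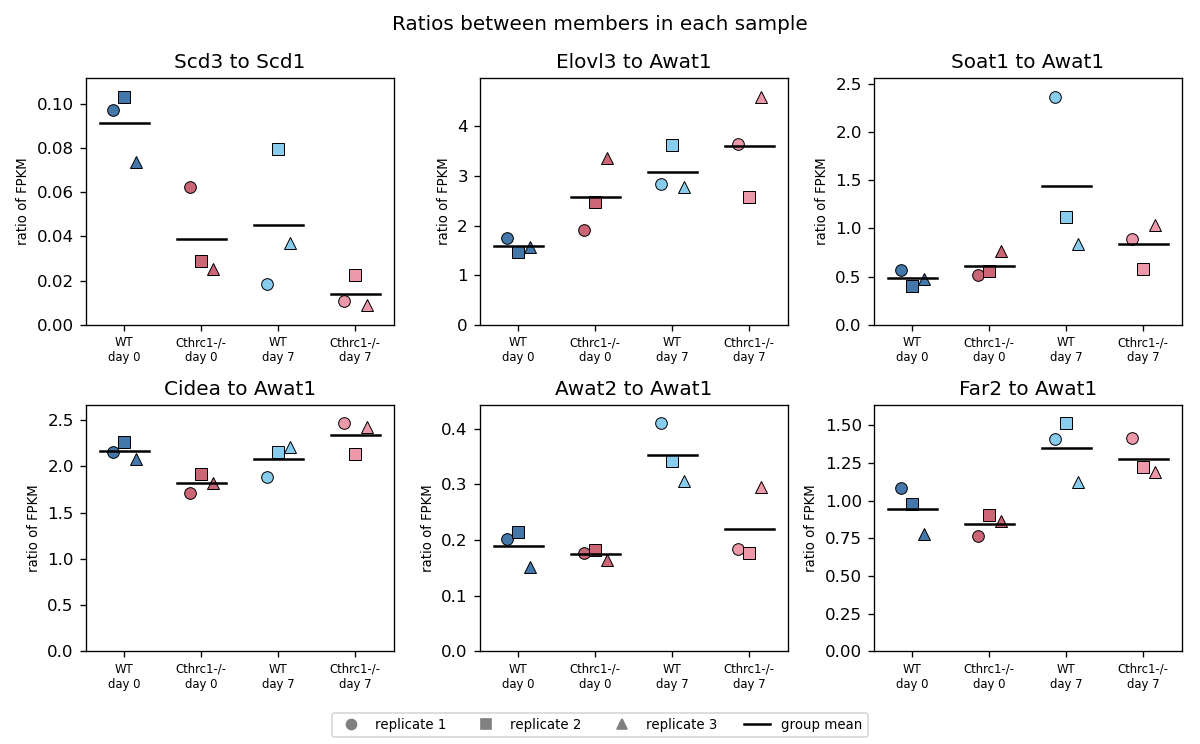
Ratio of FPKM between 2 members in each sample, by group, on axes that start at 0, with lines at the group means. Scd3 to Scd1 is 0.074 to 0.103 in WT day 0 samples against at most 0.062 in Cthrc1-/- day 0, with 1 WT day 7 sample at 0.080, Elovl3 to Awat1 is lowest in WT day 0 samples, and Cidea to Awat1 stays between 1.71 and 2.47.

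White adipocyte markers were highest in WT day 0 samples, with no overlap with the other groups. Of the members, Scd3, Scd1 and Mc5r had their highest group means there, each with overlap. Summed FPKM of 11 white adipocyte markers on day 0 was 560, 766 and 725 for WT samples and 364, 210.0 and 110.4 for Cthrc1-/- samples. On day 7 the sum was 77.8, 222 and 103 for WT and 186, 242 and 80.8 for Cthrc1-/- samples. Of the 10 tested, 7 were called lower on day 7 in WT (median log2 change -3.08), against 7.1% of all genes. By edgeR, 0 were called in Cthrc1-/- mice or between genotypes. At an unadjusted edgeR p under 0.05 there was 1 between days in Cthrc1-/- mice, against 2596 of all 14313 genes. Between genotypes there were 6 on day 0, against 4068 of all genes, and 0 on day 7, against 782. Adipoq, which encodes the adipocyte hormone adiponectin, fell in WT by 3.10 on the log2 scale (edgeR adjusted p = 0.0305). The part of adipocytes in the levels of Scd3, Scd1 and Cidea was not tested.

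Over the 12 samples, which share groups and library effects, the members' log2(FPKM + 1) values moved most closely for Awat1 and Cidea (Pearson r = 0.985, n = 12), Scd1 and Cidea (0.972) and Far2 and Cidea (0.971). Mc5r was the least like the rest, with a median r of 0.621 with the other 8, and the least alike pair was Scd3 and Elovl3 (0.407). Among the tested genes other than the 9 members, the profiles nearest to Scd1 were Gm9944 (0.984), Me1 (0.977), which encodes NADPH-producing malic enzyme, and Aadacl3 (0.975). Nearest to Awat1 were Bcap31 (0.983), Acsl5 (0.976), an acyl-CoA synthetase, and Tnfrsf18 (0.971), and nearest to Awat2 were Bcap31 (0.935), Serpinb6d (0.935) and Reep5 (0.923). Hacd2, which encodes a dehydratase of fatty acid elongation, came first, members aside, for both Far2 (0.976, then Panx3 0.967 and Aadac 0.964) and Cidea (0.978, then Acoxl 0.976 and Gm9944 0.976).

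Outside the members, profiles close to Elovl3 were Txnrd3 (0.949) and the elongase Elovl6 (0.943). Scd3 was closest to Mgl2 (0.971), a lectin of macrophages and dendritic cells, Ltbp1 (0.955) and Fam71a (0.955). Soat1 was closest to Tmbim6 (0.865), Mir147 (0.864) and Clstn3 (0.851), and Mc5r to Smim27 (0.868), Nme3 (0.865) and Mccc2 (0.850), all lower than for the other members. The mean profile of the 9 was nearest to Tmem135 (0.976), Bcap31 (0.976), Acsl5 (0.973), Gm13178 (0.973), Pxmp4 (0.963), Rtn3 (0.961), Pex11a (0.959) and Pnpla5 (0.957). Pxmp4 and Pex11a encode peroxisomal membrane proteins.

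Of 18 tested genes of fatty acid synthesis, desaturation and elongation, 1 was called higher and 1 lower between the days in WT (median -0.59), shares near the 6.04% and 7.1% of all genes. Fasn, the fatty acid synthase, had 34.6, 41.8 and 33.7 FPKM in WT day 0 and 11.3, 20.3 and 20.1 FPKM in WT day 7 samples. The log2 change was -1.30, a decrease that passed the test (edgeR adjusted p = 0.00631) and was called under all 17 alternatives. Fads2, the delta-6 desaturase, went the other way, from 3.94, 4.93 and 3.78 to 10.5, 13.7 and 13.5 FPKM. It rose by 1.38 (edgeR adjusted p = 0.0435), though leaving out any of the 6 libraries ended that call (edgeR adjusted p from 0.0658 to 0.132). The most abundant genes of the list, Elovl4 (-1.01, edgeR adjusted p = 0.194) and Tecr (-0.62, edgeR adjusted p = 0.0901), did not pass.

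Cholesterol synthesis and uptake, with 19 genes tested, had 1 gene called lower between the days in WT (median -0.34), against 7.1% of all genes. Insig1, which holds back sterol synthesis, fell by 0.74 (edgeR adjusted p = 0.0315), and leaving out any of the 6 libraries ended the call (edgeR adjusted p from 0.0656 to 0.108). Hmgcs1, an early enzyme of the route and among the most abundant of the list, did not pass in WT (-0.76, edgeR adjusted p = 0.101). On day 0, Sqle, the squalene epoxidase, was higher in Cthrc1-/- mice by 0.85 (edgeR adjusted p = 0.0496), with 15.4, 18.3 and 17.9 against 9.06, 9.83 and 7.62 FPKM. With 1 library left out, the Sqle call was kept only without Cthrc1-/- day 0 replicate 1 and ended without any of the other 5 libraries (edgeR adjusted p up to 0.152). Of all 17 alternatives, 3 kept the call. In this comparison 1 of the 19 genes was called higher and 1 lower, against 5.78% of all genes in either direction.

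Other genes of wax, triglyceride and lipid droplet biology gave 3 of 12 tested called lower between the days in WT (median -0.43), against 7.1% of all genes. Dgat2, which completes triglyceride synthesis, went from 22.7, 32.5 and 25.7 to 15.3, 15.2 and 14.0 FPKM and fell by 1.04 (edgeR adjusted p = 0.0345). Cidec, the adipocyte relative of Cidea, fell by 3.12 (edgeR adjusted p = 0.0402), and Fitm2, which acts in droplet formation, fell from 9.64, 9.99 and 9.17 to 3.44, 6.24 and 7.01 FPKM (edgeR adjusted p = 0.0356). Leaving out any of the 6 libraries ended the calls of Dgat2 and Cidec (edgeR adjusted p up to 0.117 and 0.112), and Fitm2 kept its call only without WT day 7 replicate 3 (edgeR adjusted p up to 0.0999 otherwise). Plin2, the most abundant droplet coat gene of the list, did not pass (-0.14, edgeR adjusted p = 0.852) and had 54.7 FPKM in WT day 7 replicate 1, where the macrophage sum was highest, against 24.9 and 24.7 in replicates 2 and 3. On day 0, Dgat2 was lower in Cthrc1-/- mice by 1.10 (edgeR adjusted p = 0.0477), 1 of 12 genes called, against 5.78% of all genes in either direction. With 1 library left out, that call was kept only without Cthrc1-/- day 0 replicate 1 (edgeR adjusted p up to 0.153 without each of the other 5 libraries). Of all 17 alternatives, 8 kept it.

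Sebocyte regulators and melanocortin genes gave 4 of 12 tested called lower between the days in WT (median -0.59), against 7.1% of all genes. Mgst1, a glutathione transferase abundant in sebocytes, went from a day 0 mean of 115 FPKM to 42.8, 50.1 and 61.9 FPKM, fell by 1.35 (edgeR adjusted p = 0.00678) and was called under all 17 alternatives. Mrap, an accessory protein of melanocortin receptors, fell by 3.39 (edgeR adjusted p = 0.0440), beside a median of -3.08 for the white adipocyte markers. The part of adipocytes in the Mrap level was not tested. The Mrap call was kept only without WT day 7 replicate 2 and ended without each of the other 5 libraries (edgeR adjusted p up to 0.118). Krt79, a keratin of the gland duct and the most abundant of the list, was at 137, 131 and 105 FPKM in WT day 0 and 359, 355 and 201 FPKM in Cthrc1-/- day 0 samples, with no overlap, but did not pass (1.21, edgeR adjusted p = 0.0676). Prdm1, which marks cells of the sebaceous gland and upper follicle, was at 2.56, 2.76 and 2.78 against 5.41, 7.77 and 6.39 FPKM. It was higher in Cthrc1-/- mice on day 0 by 1.17 (edgeR adjusted p = 0.0175), a call that ended without any of the 3 WT day 0 libraries (edgeR adjusted p up to 0.0884). Of all 17 alternatives, 13 kept it. Prdm1 was 1 of 12 genes called in that comparison, against 5.78% of all genes in either direction.

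In Cthrc1-/- mice between the days, edgeR called 0 of 18 genes of the fatty acid list, 1 of 19 of the cholesterol list and 0 of 12 of each of the others. Unadjusted edgeR p-values were under 0.05 for 2, 3, 1 and 3 genes of the 4 lists, and DESeq2 called 1, 2, 0 and 2. Of all 14313 genes, edgeR called 209, 2596 had an unadjusted edgeR p under 0.05, and DESeq2 called 1409. Between genotypes on day 7, edgeR and DESeq2 called 0 in every list, with 0, 5, 1 and 2 at an unadjusted edgeR p under 0.05. Over all genes these counts were 3 by edgeR, 62 by DESeq2 and 782 at the unadjusted p.

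**Figure D5:**
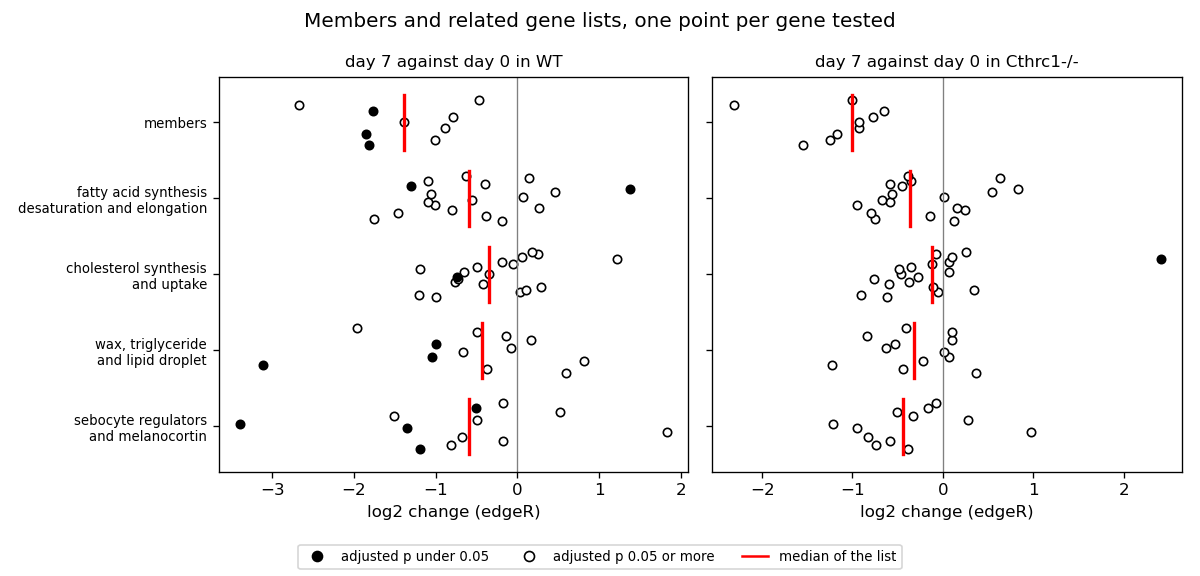
Log2 change between the days (x axis) in WT and in Cthrc1-/- mice for the members and 4 related gene lists, 1 point per gene tested, filled where the edgeR adjusted p was under 0.05, with a red line at each list's median. The member median is -1.38 in WT and -1.01 in Cthrc1-/- mice, and the 4 other medians lie between -0.59 and -0.12.

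The genes are spread over the genome (GRCm38, GENCODE annotation). Scd3 (chr19:44203269-44244016, plus strand), Scd1 (chr19:44394455-44407879, minus strand) and Elovl3 (chr19:46131897-46135694, plus strand) lie on chromosome 19, and Awat2 (chrX:100402221-100442717, minus strand) and Awat1 (chrX:100572251-100578205, plus strand) on the X. Cidea (chr18:67343604-67367785) and Mc5r (chr18:68337596-68342446) lie on chromosome 18, Soat1 on chromosome 1 (chr1:156424525-156474331, minus strand) and Far2 on chromosome 6 (chr6:148047259-148182758, plus strand). Scd1 shared 2.63% and Scd3 2.49% of their 100-base transcript windows with other genes, Scd paralogs among them. Only identical windows were counted, and the handling of reads with several matches was not stated. Scd1 was the more abundant, with a mean of 213 FPKM over the 12 samples against 11.8 FPKM for Scd3. Scd1 reads within the Scd3 level, and so within the Scd3 to Scd1 ratio, were not excluded.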

How the data were processed

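RNA-seq was measured in 12 dermis samples, 3 per group, grouped by sample title. The authors deposited, per gene and sample, a whole-number count and an FPKM value. Per the submitters' processing notes, cutadapt 1.9, HISAT2 2.0.4, UMI-tools, StringTie 1.3.4d, DESeq2, edgeR and GRCm38 were used, with no role or order given. Adapters held molecular identifiers per the labels' protocols, and nothing says if the deposited counts make use of them. A count of 4 was 3.16 to 4.05 times as frequent as the mean of 3 and 5, so a low count is not 1 fragment, and division by 4 was tried. All 362093 deposited counts of 0 had an FPKM of 0.0001, read here as 0.

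Gene IDs were named from GENCODE for GRCm38 (55141 of 55401 matched), and all 9 members matched. Columns of per-sample values left unused numbered 0. Counts were tested with the two-sided quasi-likelihood test of edgeR 4.0.16 (TMM, R 4.3.3), with 1 mean per group over all 12 samples, on the 14313 genes whose FPKM averaged 1 or more. P-values were adjusted by Benjamini-Hochberg over these genes and called under 0.05. Alternatives were DESeq2 1.42.0, limma 3.58.1 on log2(FPKM + 1) and log2(FPKM + 0.1), other size factors, other filters, only the groups compared, a replicate block, each replicate left out, and, added after seeing the data, division by 4 and omission of both libraries that stood apart. The fit was tested on simulated data.

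The members, gene lists and marker lists were chosen with earlier results of these data known. All 9 members are named. From related lists, the 2 genes with the highest mean FPKM, any gene called between genotypes or in the interaction, and at most 3 called in each direction between days are named, with 3 nearest profiles per member (members left out) and 8 for the mean profile. Some genes that this rule selects are not reported here. Adipoq was named after its values were seen. Likeness is Pearson's r of log2(FPKM + 1), described without a p. FPKM scales to library total, while TMM does not: with total-count scaling the median of all genes shifted by 0.10 on day 0, by 0.20 between days in WT and by 0.17 between days in Cthrc1-/- mice, on the log2 scale.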

Additional observations from a re-analysis of the deposited data

How the results depend on the processing

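Direction was kept by every member between days, in both genotypes, under all alternatives run. The number of members called between days in WT was 3 in the reported fit and 5 with DESeq2. It was 4 with limma on log2(FPKM + 1), which added Scd3, and 4 with only the groups compared, which added Far2. With no filter it was 1 (Scd1) and with the replicate block 0. It was 5 without both libraries that stood apart, and 0 to 3 with 1 library left out. In Cthrc1-/- mice it was 0 in the reported fit, 3 with DESeq2, 8 without both libraries and 0 to 3 with 1 left out. Between genotypes on day 0 it was 0, and 1 without both libraries. On day 7, and for the interaction, it stayed at 0 under all alternatives.

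Whether equal replicate numbers pair the samples was not settled. Correlations of deviations for same-numbered WT samples of the days were 0.087, 0.023 and 0.074, and for differently numbered ones they lay between -0.083 and 0.016. In Cthrc1-/- mice the same-numbered values were -0.065, -0.124 and 0.426, and the others lay between -0.453 and 0.520. With the replicate block the edgeR adjusted p was 0.0626 for Scd1, 0.0679 for Awat1 and 0.0690 for Cidea.

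Estimates near 0 changed sign. For Cidea on day 0 the genotype estimate was 0.026 with RLE size factors, 0.061 with total-count scaling, 0.026 with DESeq2, 0.014 with no filter, 0.013 with filterByExpr, 0.034 with only the groups compared and 0.41 without both libraries, where Scd1 had 0.11 and Mc5r 0.040. For Soat1 on day 7 it was 0.028 with total-count scaling, 0.013 with each limma pseudocount and 0.046 without both libraries. With 1 library left out, day 0 estimates ran from -0.42 to 0.38 for Cidea, -0.33 to 0.55 for Awat2, -0.32 to 0.43 for Far2, -0.22 to 0.65 for Awat1, -0.72 to 0.07 for Scd1 and -0.42 to 0.0061 for Mc5r, and day 7 estimates from -0.23 to 0.049 for Soat1, -0.63 to 0.37 for Mc5r and -0.34 to 0.19 for Awat2. The causes were not tested. Counts of all genes called ranged from 18 to 2787 (reported 827) between genotypes on day 0, 0 to 62 (3) on day 7, 527 to 3551 (1880) between days in WT, 5 to 1651 (209) in Cthrc1-/- mice and 0 to 681 (2) for the interaction.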
